A study of Caenorhabditis elegans with 2 samples.

Results

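The regions described here are candidate binding regions of the nuclear hormone receptor NHR-28 that lie between protein-coding genes on the autosomes of Caenorhabditis elegans. They were selected on measured values: the 20876 regions of the authors' pooled candidate list were ranked by their deposited signal and the first 5000 were kept. Of these, a region was a member if it lay on an autosome and its summit fell in no protein-coding gene body and in no promoter window, a span that reached 1000 bp before and 500 bp after the transcription start site (TSS) of any protein-coding transcript. The rule found 963 members, 19.3% of the first 5000. The other autosomal regions fell into 1615 in promoter windows, 535 in exons and 909 in introns, and 316 regions lay between genes on the X chromosome. Signal at the limit was nearly flat, at 15.6783 for rank 5000 and 15.6781 for rank 5001.

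The data came from chromatin immunoprecipitation sequencing (ChIP-seq), which reads the DNA held by a chosen protein. The single group was strain OP317, with genotype unc-119(ed3) III; wgIs317, where wgIs317 is the transgene that carries eGFP-tagged nhr-28. Whole L3 larvae of pooled sex were used in 2 biological replicates from separate biosamples, and their age in hours is unknown. All samples share the unc-119 mutation and the tag, no untagged or wild-type group was analysed here, the insertion site and level of the transgene were not given in the sources used here, and whole animals do not show in which cells a region was bound. Within 20000 bp of unc-119 no member was found, the nearest lying 78638 bp away, and nhr-28 itself lies on X. Of 12 autosomal marker genes of intestine, hypodermis, muscle, neurons and germline, 3 flanked a member (ges-1, rol-6 and myo-3), beside 14.8% of all genes that flank a member or a window of sequence between genes.

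Nuclear hormone receptors are transcription factors that hold DNA through a zinc finger domain, often at copies of the letters AGGTCA, and many answer to small lipid-like ligands. The family is greatly expanded in nematodes. Sequence between genes in this compact genome can hold distal enhancers, the tails of genes past their annotated ends, and small genes for non-coding RNA.

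The strongest member lay on chromosome IV between irld-18, a gene of the receptor L-domain family, and dmd-6, a DM-domain gene of the doublesex and mab-3 family. Its central 200 bases (chrIV:14594317-14594516, plus strand, build ce11, sequence from the RefSeq genome) are shown because no other annotated gene was there. They hold a run of alternating c and a letters.
strongest member: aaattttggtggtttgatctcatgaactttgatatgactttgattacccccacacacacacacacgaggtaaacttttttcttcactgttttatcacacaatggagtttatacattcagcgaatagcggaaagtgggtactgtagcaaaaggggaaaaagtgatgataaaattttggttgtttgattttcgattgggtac

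A second set of sequences carries the letters CTGCGTCTC, which members held more often than other sequence between genes. These letters were chosen with earlier results of these data known. Capitals mark those letters in 49 bases of 5 members, each read 5′ to 3′ on the plus strand of ce11. The places are chrIV:14033087-14033135 for rank 59, chrII:12798889-12798937 for rank 155, chrIV:2219602-2219650 for rank 174, chrV:1151585-1151633 for rank 189 and chrIII:7155743-7155791 for rank 269.
rank 59, upstream of mir-52: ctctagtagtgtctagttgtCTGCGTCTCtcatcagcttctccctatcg
rank 155, upstream of cpt-1: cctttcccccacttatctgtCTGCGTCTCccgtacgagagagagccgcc
rank 174, between T04C4.3 and fnip-2: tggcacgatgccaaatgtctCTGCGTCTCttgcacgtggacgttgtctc
rank 189, at linc-128: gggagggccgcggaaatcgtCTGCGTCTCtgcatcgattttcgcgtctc
rank 269, past the end of nuo-4: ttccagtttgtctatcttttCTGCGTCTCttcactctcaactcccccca

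Members also lay on genes for SL2, the spliced leader RNA that is joined to the downstream messages of operons. The genes are shown whole, 110 bases each, with the first 22 letters in capitals, from chrII:5543598-5543707 (plus strand) for sls-2.2, chrII:5544164-5544273 (minus strand) for sls-2.3 and chrIV:5063422-5063531 (minus strand) for sls-2.13. The first of these differed from sls-2.3 at 3 of 110 positions, 0 of them in capitals, and from sls-2.13 at 30 positions, 3 of them in capitals. Reads of such near copies may be hard to place.
sls-2.2: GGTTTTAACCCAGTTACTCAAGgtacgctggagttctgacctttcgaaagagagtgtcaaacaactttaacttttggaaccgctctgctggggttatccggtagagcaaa
sls-2.3: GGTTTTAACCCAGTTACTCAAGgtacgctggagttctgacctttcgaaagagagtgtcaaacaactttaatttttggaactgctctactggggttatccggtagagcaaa
sls-2.13: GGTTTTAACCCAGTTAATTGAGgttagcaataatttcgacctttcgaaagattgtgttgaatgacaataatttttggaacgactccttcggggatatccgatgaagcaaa

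Some of the microRNAs at or beside members were picked to be shown. They are shown as pairs that share a seed, bases 2 to 8 of the mature RNA, in capitals. The pairing describes the pick and is not a result about members. Seeds of the other microRNAs near members were not read. The genes mir-48 (chrV:14364472-14364494, minus strand) and mir-241 (chrV:14366248-14366268, minus strand) share the seed of the let-7 family. The genes mir-51 (chrIV:11026074-11026096, minus strand) and mir-52 (chrIV:14034024-14034047, plus strand) share another.
mir-48: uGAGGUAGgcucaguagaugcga
mir-241: uGAGGUAGgugcgagaaauga
mir-51: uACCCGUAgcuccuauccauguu
mir-52: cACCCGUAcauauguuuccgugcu

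Deposited signal among the members was between 15.7 and 72.8. Its median was 18.1 and its quartiles were 16.7 and 20.5. These values chose the members and are given as a description. The scale of the signal is not stated in the sources used here, so it ranks regions within a list and is not compared between lists. The deposited q values lay between 0.00592 and 0.741 around a median of 0.569, against a median of 0.567 over all first 5000 regions. The members' q values were thus at the level of the first 5000. Regions between autosomal genes ranked below 5000 had a median of 0.897. The pooled list holds background by construction. The last member inside the limit had rank 4998 and lay on chromosome II from 314022 to 314361, with signal 15.7. The first region outside it had rank 5001 and lay on chromosome I from 276937 to 277276, also with signal 15.7.

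The authors' final set, kept by the irreproducible discovery rate (IDR), held 22 members. That is 2.28% of the members, against a background of 3.24% over all first 5000 regions, and nothing is read from this share because the same signal chose both. In promoter windows of the autosomes 83 regions (5.14%) were in the final set, in introns 16 and in exons 6. The 22 were the 22 members with the highest signal.

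The strongest of the 22, between irld-18 and dmd-6 (chromosome IV, 14594247 to 14594586), had signal 72.8 and ranked 51 in replicate 1 and 22 in replicate 2. Its summit lay 13378 bp upstream of the start of irld-18 in a stretch of 35563 bp. On chromosome V from 12551847 to 12552186 a region of signal 66.4 lay 196 bp past the end of F45D3.4 and ranked 33 and 45 in the replicates. The region at sls-2.2 (chromosome II, 5543439 to 5543778) had signal 60.3 and ranked 55 and 40. These 3 regions stood high in both replicate lists. Next came the region 824 bp upstream of mir-52, with signal 46.3 and ranks 56 and 123. On chromosome I from 4701090 to 4701429 a region at the long non-coding RNA gene linc-91, upstream of the chromatin remodeller gene chd-7, had signal 45.4 and ranks 63 and 69.

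Of the 22, 12 had the summit within 1000 bp past the end of a protein-coding gene. One of them lay 938 bp past gdh-1, which encodes glutamate dehydrogenase, with signal 43.0. Another lay 520 bp past ptc-3, a patched-family gene, with signal 39.0. A similar region, 154 bp past the neuropeptide gene nlp-40, had signal 38.5. The regions past F45D3.4 and at sls-2.2 described above also belong here, the one at sls-2.2 lying 903 bp past the insulin-like gene ins-13. The rest lay past F58D12.1, F40E3.3, F45D3.3, the cytochrome oxidase subunit gene cox-5A and the collagen genes described further on. Some of these regions had close ranks in replicates 1 and 2, such as F45D3.4 with 33 and 45 and F58D12.1 with 130 and 151. Others did not: that of gdh-1 stood at 2254 in replicate 1 and 50 in replicate 2, and that of nlp-40 at 70 and 315.

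The other 10 of the 22 lay farther from gene ends. A pair of them stood upstream of lpin-1, the gene of the phosphatidate phosphatase lipin, with signals 39.2 and 35.5 at 2482 and 1090 bp. Their ranks were 259 and 923 in replicate 1 and 95 and 133 in replicate 2. One lay 1912 bp upstream of sup-26, an RNA-binding protein gene, with signal 38.8, and it was high in replicate 2 (rank 52) and far lower in replicate 1 (rank 3211). One lay 3146 bp upstream of fos-1, a bZIP transcription factor gene, with signal 35.4 and ranks 93 and 453. It was nearer to the end of cpg-4, 1111 bp past it, and overlapped the ncRNA gene C10F3.15. The remaining ones were those near irld-18, mir-52, linc-91 and mir-241 and regions upstream of Y48G10A.3 and of cpt-1, a carnitine palmitoyltransferase gene. The last of these lay 2472 bp upstream of cpt-1 and 1496 bp past the end of Y46G5A.18. That upstream of Y48G10A.3 lay at 1509 bp and was 1458 bp past the end of Y48G10A.2.

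In the replicate lists, of 30000 regions each, 696 members (72.3%) overlapped a region of replicate 1 by at least 1 bp and 901 (93.6%) overlapped one of replicate 2. Both lists held 640 members (66.5%), against a background of 65.7% over the first 5000, a share near that of all regions. Replicate 1 alone held 56, replicate 2 alone held 261, and 6 members were in neither list. Pooled reads are the reads of both replicates, so these counts are not independent of the rule. Members that were met had a median rank of 5952 in the list of replicate 1 and of 3823 in that of replicate 2. Over all first 5000 regions the medians were 6099 and 3606, so the better rank in replicate 2 was shared by the first 5000. Regions between autosomal genes ranked below 5000 had medians of 11542 and 11461, nearly level.

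Replicate ranks were also set side by side. Over the 640 members met in both lists, which all share the pooled selection, Spearman's rho between the replicate ranks was -0.064, against 0.048 over 1113 autosomal promoter regions, -0.097 over 553 intron regions and -0.28 over 329 exon regions. All these regions were chosen by a signal made from both replicates, which can itself lower rho, so the values describe the chosen sets and not how well the replicate lists match. Both ranks were 5000 or better for 118 members, or 12.3% of all. Both ranks were 1000 or better for 34 members, of which 19 were in the final set. Of the members outside that set, 5 met a region ranked 162 or better, the size of the set, in each replicate list. They included a pair of overlapping members between nhr-204 and lgc-26 on chromosome V, at pooled ranks 169 and 2773, in which 61.6% and 61.0% of the 31-base words occurred more than once in the genome. Another pair overlapped the final-set members at sls-2.2 and linc-91 and met the same replicate regions as those. The fifth, at pooled rank 756, lay 257 bp past the end of Y17G7B.21 on chromosome II and had no repeated 31-base word.

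**Figure D1:**
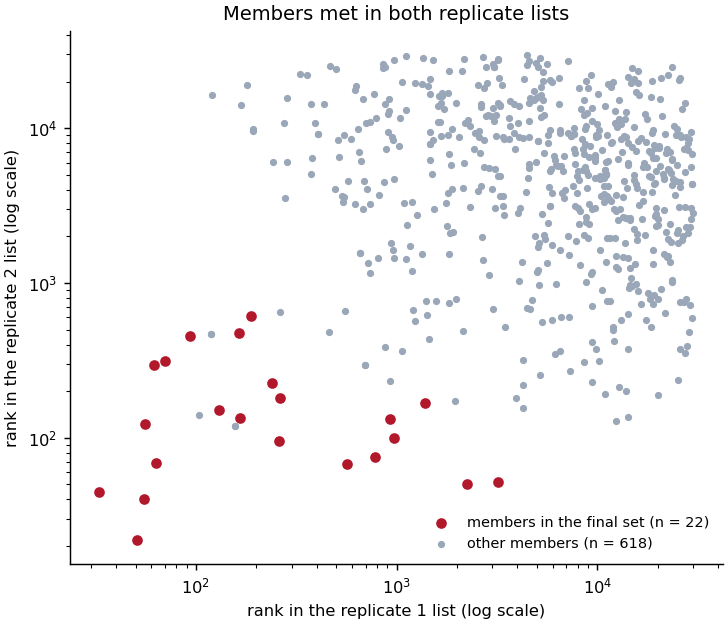
Rank of each member in the replicate 1 list (x axis, log scale) and in the replicate 2 list (y axis, log scale), for the 640 members met in both. Red points are the 22 members in the final set, whose ranks run from 33 to 3211 in replicate 1 and from 22 to 612 in replicate 2, and grey points are the other 618.

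Features that the rule did not use were counted in the members and in 340 bp windows tiled over the autosomes. Windows were kept if their centre met the same position rule, and those with over 50% of their 31-base words repeated in the genome were set aside, since such words were rare in members. Only 5 members (0.519%) were repeated to that extent, against 15.0% of all 56731 windows. The remaining 48198 windows are called the tiled windows below. The main shares of members carry an exact 95% binomial interval (Clopper-Pearson) that covers the counting of regions only. Neighbouring members are not independent, so no test was made.

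Genes for short non-coding RNA were more frequent at members than in the tiled windows. In all, 33 members (3.43%, interval 2.37 to 4.78) overlapped a tRNA, snoRNA, snRNA or miRNA gene, against 0.593% of the tiled windows and 1.15% of the 2788 lower-ranked regions between autosomal genes. The interval lay above both shares. With replicate 1 left out, and the replicate 2 list ranked alone, the share was 2.24%, below that interval and still above both shares. It was not particular to these regions within the list: autosomal promoter regions had 2.91%, all first 5000 regions 3.22%, and regions between genes on X had 8.86%, all of the last being at tRNA genes. By rank the share of members was 4.55% (1 of 22) at ranks 1 to 162 and 5.88% (10 of 170) at 163 to 1000. It was 3.46% (10 of 289) at 1001 to 2500 and 2.49% (12 of 482) at 2501 to 5000.

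Small nucleolar RNA genes, whose products guide the chemical modification of ribosomal RNA, were the most frequent of these. They were overlapped by 16 members (1.66%, interval 0.953 to 2.68), against 0.164% of the tiled windows and 0.215% of the lower-ranked regions. Autosomal promoter regions had 1.05%, within the members' interval. Autosomal intron regions had 0.880% and all first 5000 regions 0.860%. Over all members, 31.5% had the summit within 1000 bp past the end of a protein-coding gene. Windows at snoRNA genes were not counted this way. Among the 16 members at snoRNA genes, 13 had such a summit. The strongest, at W03C9.9 (chromosome II, 11960757 to 11961096), had signal 30.5 and ranked 1423 and 617 in the replicates, and its summit lay 63 bp past the end of W03C9.1. The next, at T06C12.16 (chromosome V, 15873909 to 15874248), had signal 27.4, ranks 623 and 3253, and lay 14 bp past the nuclear receptor gene nhr-102. At C18A3.12 a member of signal 26.2 ranked 13965 in replicate 1 and 200 in replicate 2. Both lists held 10 of the 16, replicate 1 alone 2 and replicate 2 alone 4. Signals of the 16 lay between 15.7 and 30.5 around a median of 19.7, and none was in the final set.

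SL2 genes accounted for all 5 members at snRNA genes (0.519%, interval 0.169 to 1.21, against 0.0726% of the tiled windows). The share at snRNA genes was not particular to members. All first 5000 regions had 0.460%, autosomal promoter regions 0.681% and autosomal intron regions 0.660%. A pair of overlapping members lay at sls-2.2, with signals 60.3 and 17.6 at ranks 35 and 2859, and both met the same replicate regions, of rank 55 and rank 40. At sls-2.3, whose sequence is almost the same, the signal was 19.4 and the replicates disagreed, with rank 467 in replicate 1 and 25329 in replicate 2. At sls-2.13, beside the major sperm protein genes msp-57 and msp-53, the signal was 25.4 with ranks 813 and 3706. At sls-2.17 it was 16.3, and the region was met in replicate 2 only.

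Transfer RNA genes were overlapped by 9 members (0.935%, interval 0.428 to 1.77), against 0.185% of the tiled windows and 8.86% of the regions between genes on X. The lower-ranked regions had 0.753%, within the members' interval. Autosomal promoter regions had 1.05% and all first 5000 regions 1.76%. Of the 9, 5 were on chromosome IV. The strongest of them, 688 bp past the end of sqrd-1, a sulfide quinone oxidoreductase gene, had signal 24.2 and ranked 120 in replicate 1 but 16313 in replicate 2. The one next in signal (15793206 to 15793545 on the same chromosome) was the reverse, with rank 29770 in replicate 1 and 597 in replicate 2. The next, 1164 bp upstream of the guanylate cyclase gene gcy-35, had ranks 3395 and 8758. Both lists held 5 of the 9, replicate 2 alone held 3, and 1 was in neither.

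**Figure D2:**
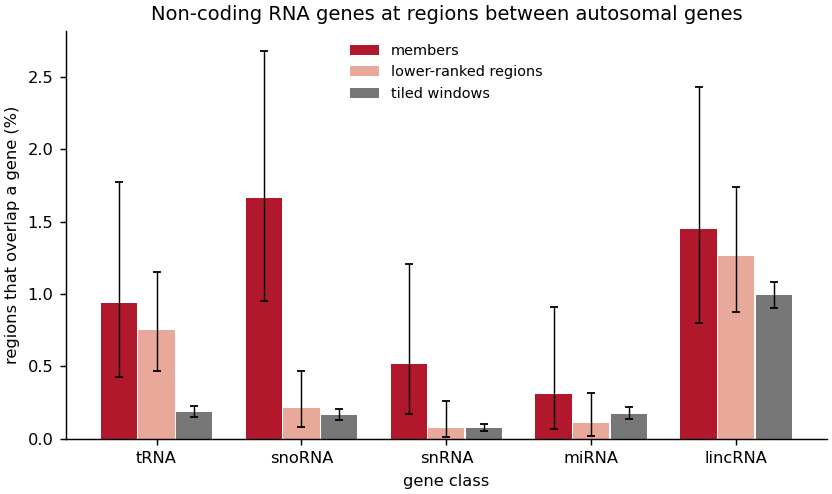
Share of regions (y axis, percent) that overlapped each class of non-coding RNA gene (x axis), for the members (red, n = 963), the 2788 lower-ranked regions between autosomal genes (pink) and the 48198 tiled windows (grey). Bars carry exact 95% intervals of the counts, and snoRNA genes show the widest gap, 1.66% of members against 0.164% of windows. The lincRNA and miRNA intervals of members and windows overlap, as do the tRNA intervals of members and lower-ranked regions.

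MicroRNA genes were overlapped by 3 members (0.312%, interval 0.0643 to 0.908, against 0.174% of the tiled windows), a share not distinguishable from that of the windows at this count. Counted by summits between 1000 bp upstream and 500 bp downstream of the miRNA's start, 13 members (1.35%, interval 0.721 to 2.30) lay near one, against 0.517% of the tiled windows. They belonged to mir-48, mir-241, mir-51, mir-52, mir-238, mir-244, mir-245, mir-790 and mir-8189, and 4 of these genes had more than 1 member.

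The stretch on chromosome V that holds mir-48 and mir-241 had 5 members, as many as any stretch. These let-7 family miRNAs act in developmental timing, in the larval stages around the one sampled. The stretch ran for 14183 bp between Y49A3A.4 and unc-39, a Six-family homeobox gene. Its strongest member (14365793 to 14366132), 320 bp downstream of the start of mir-241, had signal 42.7 and ranks 166 and 134. On the other side, 369 bp upstream of mir-241, a member had signal 19.4 and ranks 14233 and 1455. At mir-48 the summit lay 23 bp inside the gene with signal 17.0 and ranks 5201 and 13484, and 643 bp upstream of it a member of signal 17.5 ranked 233 in replicate 1 and was not met in replicate 2. Only the strongest of the 5 stood high in both replicates and was in the final set.

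For mir-52, of the other seed pair shown, the stretch between irld-55 and Y37A1B.7 on chromosome IV measured 17966 bp and had 3 members. The region 824 bp upstream of the miRNA (14033014 to 14033353) had signal 46.3, and the one on the miRNA itself (14033940 to 14034279) had signal 32.8 with ranks 925 and 234. That region, at rank 164, was the strongest member outside the final set. The member at mir-51 was weaker, with signal 18.0 and ranks 8181 and 2906, and it lay 55 bp past the end of the aldehyde dehydrogenase gene alh-3.

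**Figure D3:**
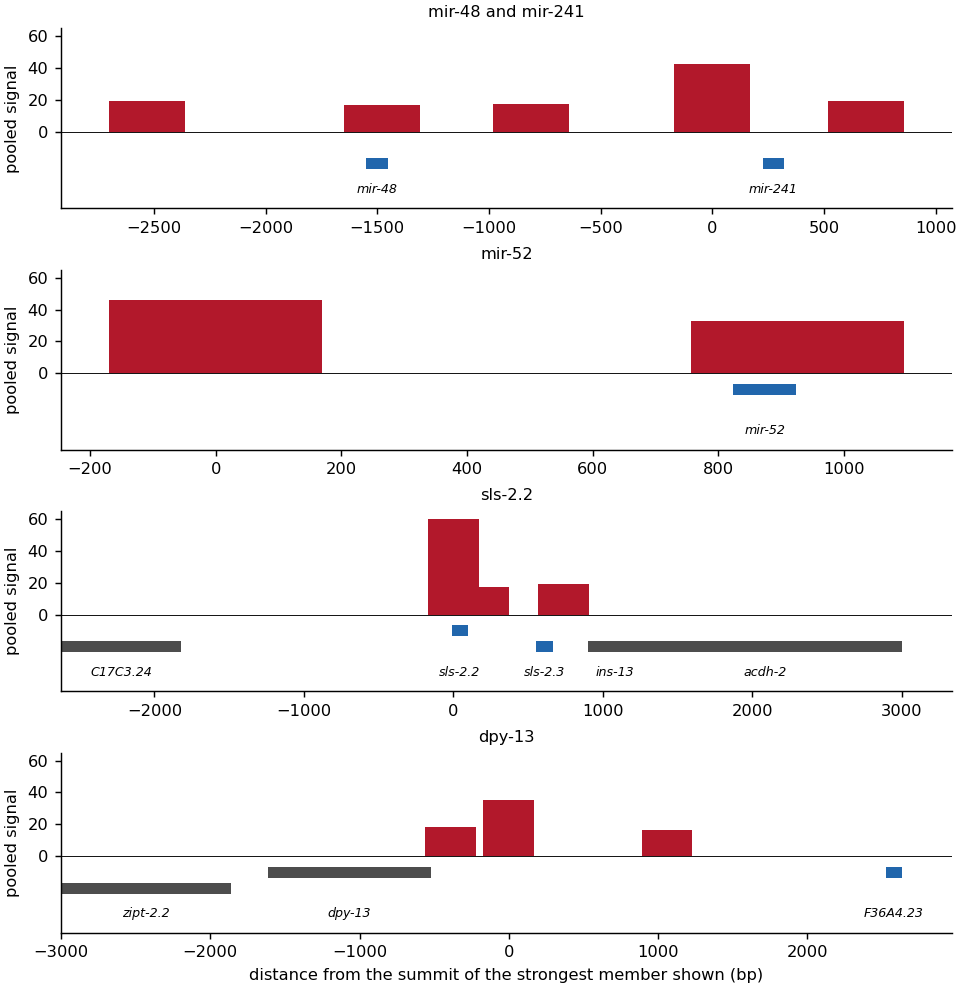
Members (red bars, height as pooled signal, y axis) at 4 places, by distance in bp from the summit of the strongest member shown (x axis). Below 0, miRNA and snRNA genes are blue and protein-coding genes dark grey, with plus strand genes on the upper level and genes cut at the edge of the map, and the tallest bars are 42.7 near mir-241, 46.3 upstream of mir-52, 60.3 at sls-2.2 and 35.3 past dpy-13.

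Genes annotated only as ncRNA, with no further class, were overlapped by 54 members (5.61%, interval 4.24 to 7.25), against 4.20% of the tiled windows, 4.38% of the lower-ranked regions and 5.74% of all first 5000 regions. The strongest of these were the regions past F45D3.4, at sls-2.2 and upstream of mir-52. Genes for piRNA, short RNAs of the germline encoded mostly on chromosome IV, were overlapped by 89 members (9.24%, interval 7.49 to 11.2), against 8.43% of the tiled windows. On chromosome IV alone the shares were 33.6% and 31.7%. The strongest of these members lay 97 bp past noah-2, a gene of a cuticle-associated protein, at pooled rank 220 and with ranks 1210 and 674 in the replicates. It was followed by one 2910 bp upstream of shl-1, a potassium channel gene, with signal 26.5, and one 1557 bp past the glutamine synthetase gene gln-3, with signal 25.2. Long intergenic RNA genes were overlapped by 14 members (1.45%, interval 0.797 to 2.43, against 0.992%). After linc-91 and linc-128, the strongest was at linc-105 on chromosome III, with ranks 10928 and 192 in the replicates. The single member at an antisense RNA gene, C02F4.12, had signal 16.9. Pseudogenes were overlapped by 60 members (6.23%, interval 4.79 to 7.95), a lower share than the 14.0% of the tiled windows. The lower-ranked regions, at 9.04%, were below the windows too, so part of this gap was not particular to members. The strongest member at a pseudogene, between K08F11.1 and fbxb-78 on chromosome IV, had signal 25.3, and the next ones had 22.5 and 21.8. No annotated non-coding gene or pseudogene was overlapped by 730 members (75.8%), against 72.8% of the tiled windows.

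Many members lay just past the end of a protein-coding gene. The summit was within 1000 bp past an end in 303 members (31.5%, interval 28.5 to 34.5), at 291 genes, against 24.8% of the tiled windows and 25.1% of the lower-ranked regions. Regions between genes on X had 32.3%. The difference was at the shortest distances: 13.7% of members (11.6 to 16.0) lay 1 to 250 bp past an end, against 8.94% of windows, and 8.20% (6.55 to 10.1) lay 251 to 500 bp past it, against 6.48%. At 751 to 1000 bp the shares were 3.63% and 4.26%. With only the 801 members whose whole region was clear of genes and promoter windows, the share was 24.2%, against 19.5% of the windows that met the same condition.

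The share past an end also went with rank. It was 54.5% of the 22 members at ranks 1 to 162, 41.2% at 163 to 1000, 30.1% at 1001 to 2500 and 27.8% at 2501 to 5000. The stretch between the flanking genes had a median of 6930 bp in members and 7185 bp in the tiled windows. Flanking genes pointed away from each other at 27.9% of members, the same way at 56.6% and towards each other at 15.4%, against 29.5%, 54.6% and 15.8% of windows. The nearest TSS was at a median of 2481 bp in members and 2573 bp in windows.

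**Figure D4:**
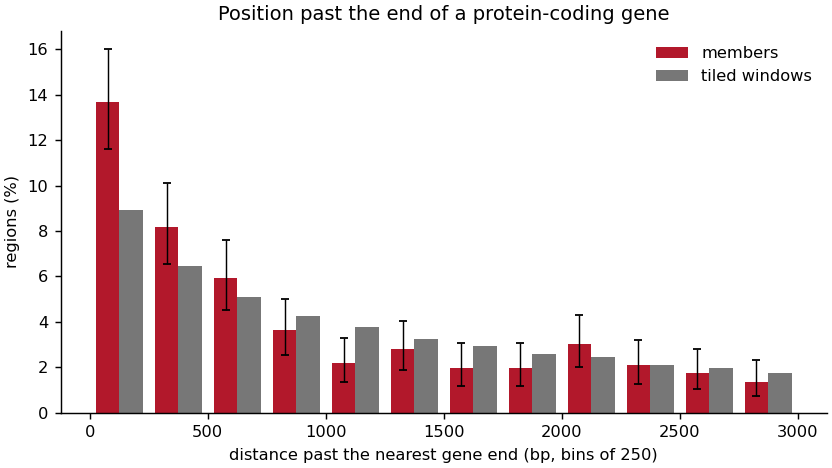
Share of the members (red, n = 963, with exact 95% intervals) and of the tiled windows (grey, n = 48198) by how far the summit or centre lay past the nearest protein-coding gene end (x axis, bp in bins of 250; y axis, percent). The members' share is 13.7% against 8.94% in the nearest bin, and the bars cross between 751 and 1000 bp.

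Cuticle collagen genes, which build the coat that larvae renew at each moult, stood out by eye among the genes with a member past their end, and this group was chosen after its values were seen. Of 54 collagen genes past whose end a member or window could be counted, 8 (14.8%) had a member, against 4.67% of all 6231 such genes. Those 8 were dpy-13, sqt-1, sqt-3, rol-6, dpy-5, rol-8, col-3 and col-135, and the first 3 had a member in the final set. Past dpy-13 (chromosome IV, 4235614 to 4236710, plus strand) the strongest member lay at 520 bp, with signal 35.3 and ranks 62 and 297. Past sqt-1 (chromosome II, minus strand) it lay at 208 bp, with signal 33.4 and ranks 778 and 75. Past sqt-3 (chromosome V, plus strand) it lay at 413 bp, with signal 32.9 and ranks 240 and 226.

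The collagen regions outside the final set were weaker or uneven between replicates. That of rol-6, 514 bp past its end, had signal 31.3 and ranked 4258 in replicate 1 and 220 in replicate 2. That of col-3 had signal 21.6 with ranks 9882 and 373. All 8 genes had a region in replicate 2, and all but col-135 had one in replicate 1. Taking the strongest region of each gene, only that of dpy-13 stood higher in replicate 1, while those of sqt-3 stood about level. Whole larvae were used, so whether this reflects hypodermis, where collagens are made, was not tested.

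In sequence, members were slightly poorer in G and C than the windows, with a median of 32.6% (quartiles 28.8 and 36.8) against 33.5%. With replicate 2 left out the median was 33.4%, almost that of the windows. The strongest were richer: the median was 40.1% at ranks 1 to 162, 33.2% at 163 to 1000 and 32.1% at 2501 to 5000. Letters were searched on both strands for 9 motifs. The motifs were chosen with earlier results of these data known, so their shares are given as a description. A match describes letters and is not a site.

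The letters CTGCGTCTC occurred in 50 members (5.19%, interval 3.88 to 6.79), against 1.96% of the tiled windows and 2.58% of the lower-ranked regions. Because of how the letters were chosen, this gap is no independent support for a motif. The plus strand held them in 35, the minus strand in 21 and both strands in 6. Autosomal promoter regions had 4.09% and regions between genes on X had 1.27%. By rank the share was 18.2% (4 of 22), 9.41%, 4.84% and 3.32% from the highest to the lowest ranks. Members with the letters had a median GC content of 41.5%, against 32.4% in the other members, so base composition moved with them. Within a range of GC the gap differed: at 40% GC or more, 22.5% of 129 members held the letters, against 5.42% of windows, at 35 to 40% the shares were 7.37% and 2.72%, and at 30 to 35% they were 2.04% and 0.986%. Below 30% no member of 301 held them (exact interval 0 to 1.22%), against 0.269% of windows.

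A run of alternating G and A, GAGAGAGA, occurred in 56 members (5.82%, interval 4.42 to 7.49), against 3.14% of the tiled windows and 3.26% of the lower-ranked regions. Autosomal promoter regions had 4.02%, regions between genes on X 2.85% and all first 5000 regions 3.94%. For these letters no comparison within ranges of GC was made. By rank the share was 27.3% (6 of 22), 8.82%, 6.57% and 3.32%. Both runs of letters stood together in 20 members. The end of GAGAGAGA and the start of the reverse complement of CTGCGTCTC have letters in common, so matches on opposite strands can overlap. The member upstream of mir-52 held both, as did those at ranks 155 and 174 shown above.

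**Figure D5:**
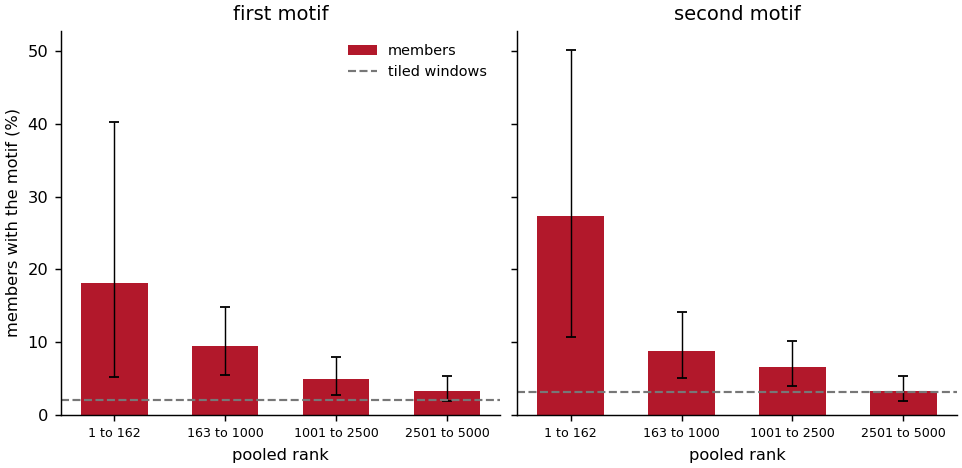
Share of members (y axis, percent) that held CTGCGTCTC (left, first motif) or GAGAGAGA (right, second motif) by pooled rank (x axis), with exact 95% intervals. Dashed lines are the tiled windows, at 1.96% and 3.14%, and the lowest-ranked members, at 3.32% for both motifs, sit near the line of the second motif.

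The half-site AGGTCA, bound by many nuclear receptors, occurred in 90 members (9.35%, interval 7.58 to 11.4), against 9.30% of the tiled windows, a share that could not be told from the windows. By rank it was 13.6% (3 of 22) at 1 to 162, 10.6% at 163 to 1000, 9.34% at 1001 to 2500 and 8.71% at 2501 to 5000. TATAAA was in 40.1% of members (37.0 to 43.3) and 36.6% of windows. This share was not particular to members: lower-ranked regions had 39.6%, autosomal promoter regions 40.3% and regions between genes on X 43.0%. The E-box CACGTG was in 6.23% (4.79 to 7.95) and 4.90%, and the GATA-type letters CTGATAAG were in 2.08% (1.27 to 3.19) and 1.28%. Shares of TGACTCA (3.53% and 3.52%), TTCNNGAA (19.8% and 21.8%) and the B-box letters GTTCGANNC (2.80% and 2.54%) were close to those of windows.

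Along the chromosomes, members were spread over all 5 autosomes, with 151 on I, 197 on II, 150 on III, 256 on IV and 209 on V. Chromosome V had 21.7% of the members and 26.6% of the tiled windows, and chromosome IV had 26.6% and 25.8%. Cut into 3 equal parts, the middle of the autosomes held 36.9% of members (lower bound 33.8) and 31.3% of windows. Autosomal promoter regions had 40.9% there. All first 5000 regions had 38.0% in the middle of their chromosome, with those on X counted by the middle of X. On chromosome II the middle had 44.2% of members and 34.1% of windows, while on chromosome IV it had 28.5% and 26.9%.

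Some members shared a place. In 15 pairs the regions overlapped, and 103 members had the summit within 1000 bp of another. The 963 members lay in 766 stretches between genes, of which 146 held at least 2 members, 343 in all. On chromosome IV the stretch between K07F5.15 and nhr-4, a nuclear hormone receptor gene, held 5, with signals from 16.4 to 24.5, none in the final set. The strongest of them (9868026 to 9868365) ranked 5158 in replicate 1 and 254 in replicate 2. A further 3 members lay in the stretch of the strongest one, between irld-18 and dmd-6, with signals of 21.5, 20.2 and 15.7. Of these, 1 was met in replicate 1, at rank 23616, and all were met in replicate 2, at ranks 1039, 699 and 3290. The members farthest from any TSS were on chromosome IV too, at 18065, 16851 and 15905 bp, with signals of 17.6, 15.7 and 16.3.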

How the data were processed

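Data were ChIP-seq peak lists of 2 replicates and their pool. Per the deposited file list, the authors called peaks and background against a control and kept a final set of 162 by IDR. Aligner, caller and IDR settings were not given in the sources used here, and the control was not analysed here. The signal per region and the −log10 of its q value are as the authors deposited them. The scale of the signal is not stated, and depth is unknown because the lists hold no read counts. Labels give a library size range of 150 to 350.

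Genes and the start sites of all protein-coding transcripts came from Ensembl release 115 (WBcel235), and the ce11 lists, which use that assembly, were placed on them. Sequences, and the coordinates of mature miRNAs, came from RefSeq. Coordinates count from base 1. Python 3.11.15, NumPy 2.4.6, SciPy 1.17.1 and matplotlib 3.10.9 were used, and the counting steps were tested on simulated data.

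Members, lists and motifs were chosen with earlier results of these data known. With 1 group, no comparison over samples exists, and no test was made. Named were all members in the final set, the 3 strongest outside it and per RNA class, the strongest per autosome, those farthest from a TSS or best in a replicate, and the limit's neighbours; miRNA neighbours, collagen genes, the pairs and crowded stretches, and other regions were named after their values were seen. Leaving out a replicate meant ranking the other replicate's own list.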

Additional observations from a re-analysis of the deposited data

How the results depend on the processing

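Taking the first 2500 or 10000 regions gave 481 or 1831 members, and the final set gave 22. Members past a gene end were then 35.1% and 28.2%, members in both replicates 77.5% and 54.2%, and median GC was 33.2% for the first 2500. Requiring the whole region to be clear of genes gave 24.2% past an end, which by construction drops regions that touch one. Short RNA genes were at 5.19% of members by the start window. An overlap of at least 50% of the member left 57.3% in both replicates, and the first 5000 of each list left 12.3%. With either replicate left out, members ranged from 914 to 937, short RNA from 2.24% to 3.28%, the middle of chromosomes from 35.6% to 36.0%, gene ends from 28.6% to 31.3% and median GC from 32.1% to 33.4%. Other promoter windows, and 3 alternatives chosen after seeing the data (1 start per gene, summits clear of non-coding genes, repeated members left out), kept these shares within the intervals of the reported ones, and gave 697 to 1201 members. The limits are 2 replicates, no counts, a control that was not analysed here and an unstated signal scale.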

Other observations

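Gene families beside the members differed in how often a member lay next to them. The families were chosen by name after the data were seen, the shares count genes that flank a member or a tiled window of any kind, and a longer stretch has more room for a member. Of all 9869 such genes, 14.8% flanked a member. Among chemoreceptor genes, which serve smell and taste, 60 of 741 did (8.10%), and among F-box genes 9 of 180. Cytochrome P450 genes, of drug and lipid metabolism, gave 2 of 42 (4.76%), and C-type lectin genes 15 of 138 (10.9%). Histone genes gave 2 of 31 (6.45%). These families were below the share of all genes.

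Among nuclear hormone receptor genes, the family of the tagged protein, 31 of 165 flanked a member (18.8%). Homeobox genes gave 9 of 43 (20.9%), among them lin-39 and egl-5, Hox genes of the body axis. Insulin-like genes gave 6 of 32 (18.8%) and cuticle collagen genes 14 of 75 (18.7%). By the count of genes with a member within 1000 bp past their end, nuclear hormone receptor genes gave 4 of 110 (3.64%) and homeobox genes 0 of 28, against 4.67% of all 6231 such genes. No test of these differences was made.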
